A study of Mus musculus with 2 samples.

Results

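The genes described here encode the chemokines, the interleukins and their receptors. They are all protein-coding genes of GENCODE mouse release 21 whose symbol is Ccl, Cxcl, Ccr, Cxcr or Il followed by a digit, and 134 of 21755 protein-coding genes on the 19 autosomes and the X chromosome met this rule. The symbols divide into 72 ligands, 58 receptors and 4 genes that are neither, namely the receptor antagonists Il1rn and Il1f5, the binding protein Il18bp and the enzyme gene Il4i1. ChIP-seq, the sequencing of immunoprecipitated chromatin, mapped trimethylation of histone H3 at lysine 27 (H3K27me3) in E14TG2a.4, a line of 129/Ola mouse embryonic stem cells. The cells are male, carry no stated treatment or modification, and have an embryonic stage and an age of 3.5 days in the labels. The 2 samples are biological replicates of this single group and derive from the same donor of the line, so there is no second condition to contrast.

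H3K27me3 is deposited by Polycomb repressive complex 2 and is found at promoters of genes that are held silent. In embryonic stem cells it lies mainly at CpG-rich promoters of developmental genes. Chemokines are small secreted proteins that guide migrating cells through G-protein-coupled receptors, and interleukins act on blood and epithelial cells through several families of receptor chains, many of which signal by JAK kinases or through MyD88. Most of these genes are known for their activity in immune cells, barrier epithelia and stroma, and many chemokine genes arose by tandem duplication and lie in clusters.

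A promoter is called marked here when a peak lies within 1 kb of the annotated 5′ end of the gene in each replicate's own peak list. Replicate 1 had 63651 peaks over 53.6 Mb and replicate 2 had 98582 peaks over 58.4 Mb, and the read depth behind them is unknown, so a promoter without a peak may lack reads instead of the mark. All positions are on build mm10. The developmental regulators Hoxd13, Pax6, Gata6, Gata4 and T were marked, 5 of 5, and none of Pou5f1, Nanog, Sox2, Gapdh and Actb had a peak. Of all 21755 protein-coding genes 26.1% were marked and 14803 had no peak. Absent peaks at a few chosen genes therefore say little of the cell label.

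Of the 134 genes, 38 (28.4%) were marked, close to the 26.1% of all protein-coding genes. The families within it ranged widely. Among ligands, 7 of 12 Cxcl genes and 7 of 37 interleukins were marked but 1 of 23 Ccl genes. Among receptors, 18 of 41 interleukin receptor chains, 3 of 11 Ccr genes and 2 of 6 Cxcr genes were marked. None of the 4 remaining genes had a peak. In all, 15 of 72 ligands (20.8%, exact Clopper-Pearson 95% interval 12.2 to 32.0) and 23 of 58 receptors (39.7%, interval 27 to 53.4) were marked. These intervals cover counting error only and overlap. The difference was not tested, because genes are not replicates and many of them are tandem neighbours.

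**Figure D1:**
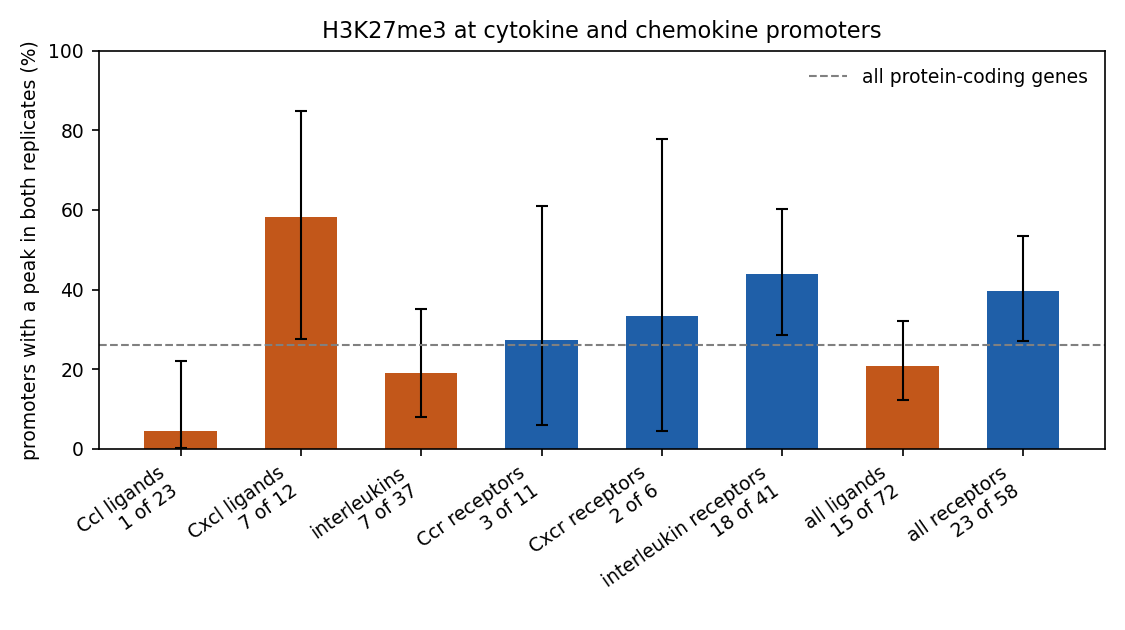
Share of promoters (%) with a peak in both replicates, by gene family, with the number marked under each bar. Error bars are exact 95% binomial intervals and the dashed line is the share of all protein-coding genes, 26.1%. Ccl ligands (1 of 23) are lowest and Cxcl ligands (7 of 12) highest.

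Most members with a peak had it in both replicates. Of the 49 genes with a peak in at least 1 replicate, 38 had it in both, 10 in replicate 2 alone and 1 in replicate 1 alone. Over all protein-coding genes, 5679 had a peak in both, 895 in replicate 2 alone and 378 in replicate 1 alone. Replicate 2 is also the longer list. The 11 genes with a peak in a single replicate had from 60 bp at Il7 to 784 bp at Ccl22 of the window covered, with a median of 287 bp. Some marked genes fell in this range, such as Ccl24 with 210 bp in replicate 1 and 346 bp in replicate 2. The 38 marked genes had a median of 1463.5 bp covered in replicate 1 and 1234.5 bp in replicate 2, beside 1251 bp and 1200 bp for all marked protein-coding genes. By the signal value the authors gave each peak, the median percentile of their highest peak within each list was 81.8 and 85.1, beside 88.2 and 91.7 for all marked protein-coding genes. The median was 75.7 and 72.9 for marked ligands and 87.0 and 89.8 for marked receptors.

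Promoter sequence differed widely among these genes, and 6 promoters are printed to show the range. Each line gives the 250 bases before the RefSeq start on GRCm38.p6, 5′ to 3′ on the strand of the gene, with CG dinucleotides in capitals. Cxcl14 (chr13:56296552-56296801, minus strand), Cxcr4 (chr1:128592300-128592549, minus strand), Il13 (chr11:53634703-53634952, minus strand) and Il15ra (chr2:11705043-11705292, plus strand) are marked and rank highest by signal in their families among genes with a usable RefSeq entry. Il6 (chr5:30012864-30013113, plus strand) and Il2 (chr3:37125955-37126204, minus strand) have no peak and stand for cytokines induced in activated immune cells.
Cxcl14: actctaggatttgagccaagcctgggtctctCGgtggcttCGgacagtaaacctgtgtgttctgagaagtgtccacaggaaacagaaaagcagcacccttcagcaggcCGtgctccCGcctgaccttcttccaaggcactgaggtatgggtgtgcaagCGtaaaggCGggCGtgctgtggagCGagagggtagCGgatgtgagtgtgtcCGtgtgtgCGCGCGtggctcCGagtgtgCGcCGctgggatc
Cxcr4: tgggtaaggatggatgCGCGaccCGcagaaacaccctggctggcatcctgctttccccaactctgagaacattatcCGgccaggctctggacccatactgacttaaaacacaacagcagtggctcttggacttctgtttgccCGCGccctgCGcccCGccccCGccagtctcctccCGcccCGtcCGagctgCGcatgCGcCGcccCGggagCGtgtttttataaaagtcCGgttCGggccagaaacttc
Il13: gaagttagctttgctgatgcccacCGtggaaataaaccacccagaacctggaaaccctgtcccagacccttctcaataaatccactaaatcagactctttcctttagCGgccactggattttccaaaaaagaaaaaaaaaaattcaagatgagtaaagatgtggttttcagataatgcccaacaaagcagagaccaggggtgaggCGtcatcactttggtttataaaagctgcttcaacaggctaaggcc
Il15ra: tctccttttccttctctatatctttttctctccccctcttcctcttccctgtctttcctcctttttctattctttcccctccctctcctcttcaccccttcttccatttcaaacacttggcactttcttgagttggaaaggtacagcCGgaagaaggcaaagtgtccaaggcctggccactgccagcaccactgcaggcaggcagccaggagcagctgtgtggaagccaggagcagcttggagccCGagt
Il6: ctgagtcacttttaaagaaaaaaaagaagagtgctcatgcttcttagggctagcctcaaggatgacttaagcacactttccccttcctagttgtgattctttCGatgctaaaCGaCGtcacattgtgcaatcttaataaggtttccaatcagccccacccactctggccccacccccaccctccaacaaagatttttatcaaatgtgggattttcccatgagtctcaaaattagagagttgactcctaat
Il2: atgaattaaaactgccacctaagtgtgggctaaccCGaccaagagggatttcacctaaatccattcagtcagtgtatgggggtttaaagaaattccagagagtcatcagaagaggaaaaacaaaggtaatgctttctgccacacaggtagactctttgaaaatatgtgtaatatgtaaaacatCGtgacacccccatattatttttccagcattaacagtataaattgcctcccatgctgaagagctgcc

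Cxcl14 and Cxcr4 hold 16 and 19 CG dinucleotides in this stretch and are 59.6% and 61.2% G and C. Il13, Il15ra, Il6 and Il2 hold 3, 2, 3 and 2. Il13 and Il15ra are thus marked although their upstream sequence has as few CG dinucleotides as that of the unmarked Il6 and Il2. TATAAA, the core of the TATA box, occurs in the printed stretches of Cxcr4, Il13 and Il2. The Il6 stretch holds GGGATTTTCC, a match to the NF-kB (kappa B) motif.

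The motif search covered the 300 bases from 250 before to 50 after the RefSeq start, on both strands, for the 103 members with an entry. TATAAA was found in 17 of 52 ligand promoters (32.7%), 4 of 47 receptor promoters (8.51%) and 12.9% of all 16433 protein-coding promoters searched. The NF-kB motif was found in 9 ligand promoters (17.3%), 6 receptor promoters (12.8%) and 9.19% of all promoters. Among the 26 marked members with an entry, 4 held TATAAA and 6 the NF-kB motif, and among the 70 without a peak 16 and 8 did. A match describes letters only.

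The Cxcl genes encode chemokines with a residue between the first cysteines, and they made up 7 of the 15 marked ligands. Cxcl14, expressed in epithelia, lies on chromosome 13 with its 5′ end at 56296551, and its whole window was covered in both replicates. The authors' signal value, which ranks peaks within a list, was 10.2 in replicate 1 and 12.4 in replicate 2, above 95.4% and 98.8% of the peaks of those lists. Cxcl16, a membrane-bound chemokine and the ligand of Cxcr6, was also wholly covered, with signal values of 10.7 in each replicate, and its window lies beside the start of Zmynd15.

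Cxcl12, the ligand of Cxcr4 that guides stem and germ cells, had 1947 bp covered in replicate 1, the whole window in replicate 2, and signal values of 10.1 and 11.0. Its mark belonged to a domain of 15.0 kb, where a domain is a stretch of bases in peaks of both replicates joined over gaps of up to 3 kb. The domain at Cxcl14 spanned 11.7 kb. These long domains reached into the genes, and 65.0% of Cxcl12 and 66.5% of Cxcl14 lay in common peaks.

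The other Cxcl genes had lower values. Cxcl5 and Cxcl1, which attract neutrophils, had 1378 bp and 1136 bp covered in replicate 1 and 1242 bp and 1121 bp in replicate 2. Cxcl10, an interferon-induced ligand of Cxcr3, had 1467 bp and 1348 bp covered, whereas Cxcl9, another ligand of Cxcr3, had no peak and lay 3555 bp from the nearest common peak. Cxcl3 was barely marked, with 237 bp and 308 bp. Cxcl2 had a peak of 346 bp in replicate 2 alone. Cxcl15, Cxcl17 and Cxcl13, a B cell attractant, had none.

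Among the 23 Ccl genes a mark was called once at the annotated 5′ end, at Ccl24, an eosinophil attractant on chromosome 5. That call rests on 210 bp in replicate 1 and 346 bp in replicate 2 with no base in common, and the nearest base common to both replicates lay 22879 bp away. The other 37 marked genes had common bases in the window. Ccl22 and Ccl4 had a peak in replicate 2 alone, of 784 bp and 219 bp. The other 20 had none at that end, among them Ccl2, which attracts monocytes and lay 65306 bp from the nearest common peak. The nearest were Ccl1 at 2414 bp, Ccl17 at 3392 bp and Ccl26 at 13399 bp. The Ccl1 end used here lies 125878 bp from its RefSeq start. Ccl1 was marked at that RefSeq start and when any protein-coding transcript start was used. Ccl19, Ccl21a, Ccl21b, Ccl27a and Ccl27b have near-identical copies, where read filters could remove signal, so an absent peak is uncertain there.

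**Figure D2:**
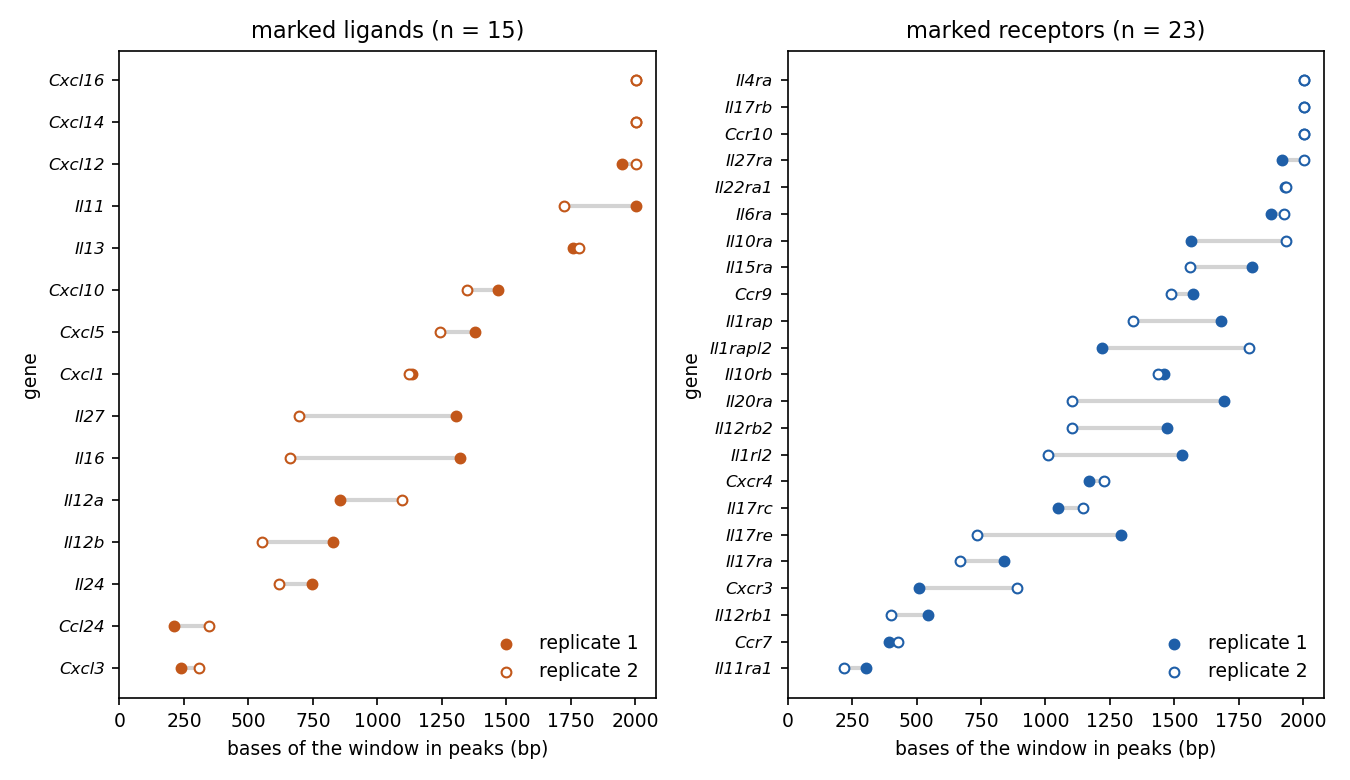
Bases in peaks (bp, of the window of 1 kb on each side) at each marked gene in replicate 1 (filled) and replicate 2 (open), for 15 ligands on the left and 23 receptors on the right, with a grey line joining the replicates. Cxcl14, Cxcl16, Ccr10, Il4ra and Il17rb are wholly covered in both, and Cxcl3, Ccl24, Ccr7 and Il11ra1 lie at the low end.

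Of the chemokine receptors, Ccr10 carried the most. Ccr10, a receptor of skin-homing lymphocytes on chromosome 11 with its 5′ end at 101175443, had its whole window covered in both replicates and signal values of 13.1 and 14.7, the highest of any member. Its whole gene of 2.45 kb lay in common peaks, inside a domain of 21.2 kb that also holds the starts of Cntnap1 and Plekhh3. No ligand of Ccr10 was called marked, since Ccl27a, Ccl27b and Ccl28 had no peak. For Ccl27a and Ccl27b, which have near-identical copies, the absent peak is uncertain.

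Cxcr4, the receptor of Cxcl12, had 1168 bp and 1227 bp covered and signal values of 7.12 and 8.96, and 68.5% of the gene lay in common peaks. Both members of this pair were thus marked. Cxcr3, the receptor of Cxcl9 and Cxcl10 on the X chromosome, had 511 bp and 888 bp covered. Ccr7, which guides lymphocytes to lymph nodes, had 392 bp and 428 bp, with the nearest common base 796 bp from the start. Its ligands Ccl19 and Ccl21a had no peak, which is uncertain because both have near-identical copies.

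Ccr9 illustrates how far a call depends on the annotated start. Its 5′ end in GENCODE, where 1573 bp and 1485 bp were covered, lies beside the start of the transporter gene Slc6a20a, 88772 bp from the RefSeq start of Ccr9, and the RefSeq start was not marked. Ccr6 had a peak at its 5′ end in replicate 2 alone, of 206 bp, but was marked at another transcript start. Cxcr2 had 287 bp in replicate 2 alone. No peak was found at Ccr1, Ccr1l1, Ccr8, Ccr2, Ccr3, Ccr4, Cxcr1, Cxcr5 or Cxcr6.

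Interleukins are described by the receptor family they use, in small groups drawn up with their values known, and the share of all genes to read each count against is the same 26.1%. In the group of Il6 and Il12, 4 of 7 ligands and 5 of 9 receptor chains were marked. Il11, a stromal cytokine, had the whole window covered in replicate 1, 1723 bp in replicate 2, and 70.8% of its gene in common peaks, within a domain of 10.7 kb that also holds the start of Tmem190. Il12a and Il12b, the subunits of a cytokine that drives type 1 T cells, had 855 bp and 826 bp in replicate 1 and 1094 bp and 552 bp in replicate 2. Il27 had 1304 bp and 697 bp. Il31 had 135 bp in replicate 1 alone, the one gene of its kind, and Il6 and Il23a had no peak.

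Among the receptors of this group, Il6ra, the binding chain for Il6, had 1874 bp and 1926 bp covered and signal values of 9.49 and 10.4. Il6st, the signalling chain that Il6, Il11, Il27 and leukaemia inhibitory factor share, had no peak, and its nearest common peak lay 173240 bp away. Il27ra had 1916 bp in replicate 1 and the whole window in replicate 2, in a domain that includes the start of Rln3. Il12rb2 had 1471 bp and 1102 bp, Il12rb1 545 bp and 400 bp, and Il11ra1 306 bp and 219 bp. The Il11ra1 end used here lies 60454 bp from the RefSeq start, which was not marked. With the relaxed lists or the replicated list of an earlier run Il11ra1 was not marked. Il11ra1 also has a near-identical copy, Il11ra2, so its reads may be split. Il11ra2, Il23r and Il31ra had no peak.

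In the Il10 family, 1 of 5 ligands and 4 of 6 receptor chains were marked. Both chains of the receptor of Il10, an anti-inflammatory cytokine, were among them. Il10ra had 1564 bp and 1933 bp covered with signal values of 9.13 and 10.1, and Il10rb had 1460 bp and 1435 bp. Il20ra had 1692 bp and 1101 bp, and Il22ra1, a receptor chain of epithelia, 1929 bp and 1933 bp. Il10 itself had 420 bp in replicate 2 alone. Il24 was the marked ligand, with 746 bp and 618 bp, and Il19, Il20 and Il22 had no peak, nor had Il20rb and the decoy receptor Il22ra2.

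In the Il17 family, 0 of 6 ligands and 4 of 5 receptor chains were marked in the replicates' own peak lists. The median CpG ratio, defined with the promoter classes, was 0.237 for these ligands and 0.61 for the receptors, and its part in the counts was not tested. Il17rb, which binds Il25, was wholly covered in both replicates with signal values of 9.32 and 9.83, beside the start of Chdh. Il17rc had 1049 bp and 1145 bp, Il17ra, the shared chain, 841 bp and 667 bp, and Il17re 1293 bp and 733 bp. Il17re and Il17rc are neighbours on chromosome 6, with starts at 113458484 and 113471427. Il17rd had no peak. Of the ligands, Il17b and Il17f had a peak in replicate 2 alone, of 608 bp and 338 bp, and Il17a, Il17c, Il17d and Il25 had none. The absence of marked ligands depended on the list used. The relaxed lists of an earlier run marked Il17b, Il17d, Il17f and Il25. The replicated list of that run marked Il17b, Il17f and Il25, and the second run's replicated list Il17b and Il25. The same 4 receptor chains were marked with each of these lists.

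In the Il1 family, 0 of 8 ligands and 3 of 9 receptor chains were marked. Il1a, Il1b, Il18 and Il33, alarm signals of damaged or infected tissue, had no peak, nor had Il1f6, Il1f8, Il1f9 and Il1f10. Il1b lay 198674 bp from a common peak. Il1rl2, the receptor of the Il36 cytokines, had 1529 bp and 1011 bp covered, and Il1rap, the accessory chain of the family, 1679 bp and 1339 bp. Il1rapl2, a neuronal relative on the X chromosome, had 1221 bp and 1788 bp, while its X-linked paralogue Il1rapl1 had no peak and the nearest common peak was 5162143 bp away. Il1r1, Il1r2, Il1rl1, Il18r1 and Il18rap had no peak at the 5′ end, although Il1r1 and Il1r2 were marked at another transcript start.

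Of the cytokines of the common gamma chain, which act on lymphocytes, with Il13 included, 1 of 7 ligands and 2 of 10 receptor chains were marked. Il13, a type 2 cytokine on chromosome 11, had 1759 bp and 1780 bp covered with signal values of 10.1 and 11.3, above 95.1% and 97.9% of peaks. Its neighbours Il4 and Il5 had no peak, and lay 8487 bp and 11923 bp from one. Il4ra, the receptor chain that Il4 and Il13 share, was wholly covered in both replicates with signal values of 12.4 and 10.4. Il15ra had 1802 bp and 1561 bp covered.

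The remaining genes of this group lacked a common mark. Il2, the T cell growth factor, and its receptor chains Il2ra, Il2rb and Il2rg had no peak. Il7 had 60 bp in replicate 2 alone and Il13ra1 202 bp. Il9, Il15, Il21, Il7r, Il9r, Il13ra2 and Il21r had none. Nor had Il3, Il5, Il3ra and Il5ra, the 4 genes of the common beta chain group. Outside these families Il16 was marked with 1320 bp and 662 bp, at an end 10187 bp from its RefSeq start, which was not marked, and Il34 had no peak.

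The 1 kb limit set some of these calls. Just inside it were Ccl24 and Ccr7, the members not marked with 0.5 kb on each side, with 210 bp and 392 bp of the window covered in replicate 1 and 346 bp and 428 bp in replicate 2. Of the genes with no peak in either replicate, the nearest outside was Il21r, with a common peak 1156 bp from its start, then Il9r at 2086 bp and Il25 at 2100 bp. Of the 85 genes without a peak, 9 lay within 5 kb of a common peak and 49 lay over 50 kb away. Their median distance was 65306 bp. Of all 14803 protein-coding genes without a peak, 879 lay within 5 kb and 8532 lay over 50 kb away, with a median of 68206 bp.

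**Figure D3:**
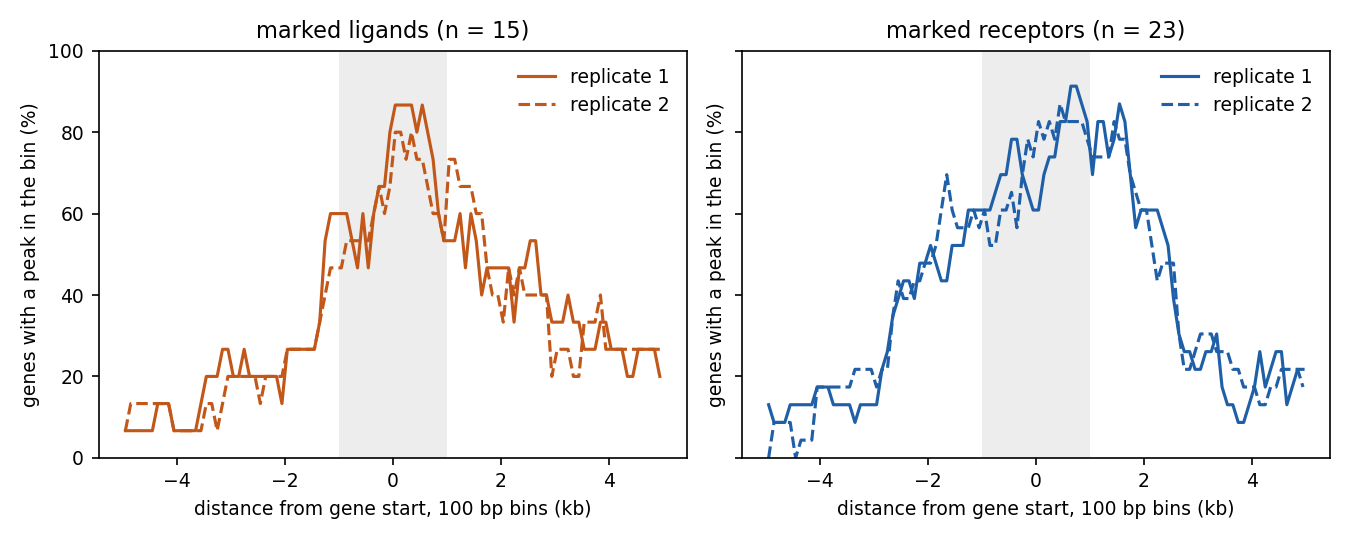
Share of marked genes (%) with a peak in each 100 bp bin from 5 kb upstream to 5 kb downstream of the gene start, for replicate 1 (solid) and replicate 2 (dashed). The grey band is the 1 kb window that defines a marked gene, so the high values inside it follow from the definition. Outside it, at 2050 bp downstream, 46.7% of ligands and 60.9% of receptors have a peak in replicate 1.

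The mark extended past the window at many genes, as the plot by distance shows. In the bin at −1950 bp, 26.7% of the 15 marked ligands had a peak in each replicate, and 52.2% and 47.8% of the 23 marked receptors did in replicates 1 and 2. At 20 of the 38 genes the 5′ end itself lay in a common peak, and at 22 more common bases lay downstream of it than upstream. The domains at marked genes had a median length of 4.26 kb and reached 21.2 kb. Of the 38 marked genes, 5 lay in a domain over 10 kb: Ccr10, Cxcl12, Il12rb1, Cxcl14 and Il11. At 7 genes the domain held the start of another protein-coding gene, and at 4 of them, Ccr9, Il17rb, Cxcl16 and Il11, that start lay within 2 kb, so the mark cannot be assigned to a single gene.

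Promoter CpG ratio, the observed over the expected number of CG dinucleotides within 500 bp of the 5′ end, was low in these genes. Its median was 0.230 against 0.558 for all protein-coding genes, with 0.225 for ligands and 0.253 for receptors. The 38 marked genes had a median of 0.391 and the 85 without a peak 0.204. When all protein-coding genes were split into 3 equal classes by this ratio, 54 of 72 ligands (75.0%) and 35 of 58 receptors (60.3%) fell into the lowest class.

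The share of receptors was above that of ligands in the lowest and middle classes and equal to it in the highest. In the middle class 13 of 17 receptors (76.5%) and 5 of 14 ligands (35.7%) were marked, beside 39.3% of all genes. In the lowest class the figures were 7 of 35 (20.0%) and 8 of 54 (14.8%), beside 10.5% of all genes. The highest class held 3 marked of 6 receptors and 2 of 4 ligands, beside 28.5%. Had each gene followed the share of all genes in its class when these were split into 10 equal classes, 19.6% of all members, 18.4% of ligands and 21.7% of receptors would be marked, beside 28.4%, 20.8% and 39.7% observed. These small classes were not tested.

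**Figure D4:**
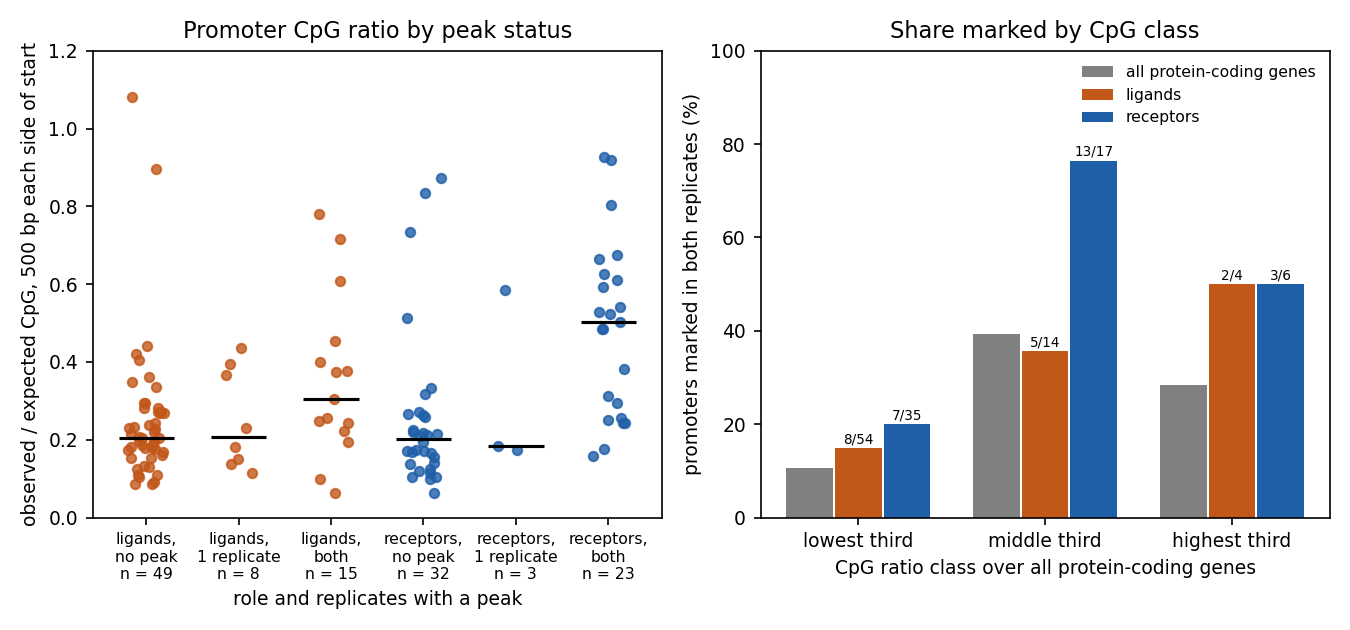
Left, observed over expected CpG within 500 bp of the start of each gene (points) by role and number of replicates with a peak, with medians as lines. Right, share marked (%) in 3 classes of CpG ratio for all protein-coding genes, ligands and receptors, with marked over total above the bars of ligands and receptors. In the middle class 13 of 17 receptors and 5 of 14 ligands are marked.

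Of the 38 marked genes, 15 were in the lowest CpG class, and Il24 and Il11 had ratios of 0.0623 and 0.0995, while Ccr10 had 0.295 and Il13 0.242. In the highest class, 6 genes had no peak: Ccl25 (1.08), Il4i1 (0.931), Il17d (0.897), Il17rd (0.873), Il6st (0.835) and Il3ra (0.734). The start of Elavl1 lies within 2 kb of that of Ccl25, and the starts of Nup62 and Atf5 within 2 kb of that of Il4i1. The ratios of Ccl25 and Il4i1 thus cannot be assigned to a single gene. The Il4i1 end used here lies 19901 bp from its RefSeq start.

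Many members lie in clusters. Runs of at least 3 members with neighbouring 5′ ends at most 200 kb apart numbered 9 and held 46 genes, of which 7 (15.2%) were marked, beside 31 of 88 (35.2%) elsewhere, a difference that was not tested. The median CpG ratios were 0.175 and 0.257, so position and promoter class moved together and their parts were not tested. The run from Ccl2 to Ccl1 on chromosome 11 (82035571 to 82305690) held 6 members, none with a peak at the annotated 5′ end. Ccl1 was, however, marked at its RefSeq start, 125878 bp from that end. Common peaks covered 0.179% of the 270.1 kb of this run. Common peaks cover 1.49% of the chromosomes used.

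Other runs were similar in part. The runs from Ccl5 to Ccl4 on chromosome 11, from Ccl27b to Ccl21a on chromosome 4 and from Il1f8 to Il1rn on chromosome 2 (24153161 to 24351494) held no common base at all. The Il1f8 run spans 198.3 kb and includes Il1f5, Il1f6, Il1f9 and Il1f10. In the run from Il1r2 to Il18rap on chromosome 1 only Il1rl2 was marked of 6 members. The run from Cxcl5 to Cxcl2 on chromosome 5 (90759360 to 90905938) differed, with 3 of 5 members marked and a median CpG ratio of 0.366. In the run from Il4 to Il5 the DNA repair gene Rad50 was marked besides Il13.

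The same pathways were read from lists of genes outside the symbol rule, beside the 26.1% of all genes. These lists were chosen with earlier results of these data known, so their counts are descriptions only. Of other chemokine genes 3 of 13 were marked, Cx3cl1, Cmklr1 and Ccrl2, and not Ackr2, Ackr3 or Ackr4. Cx3cl1, a membrane-bound chemokine, had 1887 bp and 1877 bp covered with signal values of 12.1 and 13.3. Of other cytokines 15 of 25 were marked: Clcf1, Csf1, Csf3, Epo, Flt3l, Lep, Lta, Ltb, Osm, Tgfb1, Tgfb2, Tgfb3, Thpo, Tnf and Tslp. The neighbours Tnf and Lta, inflammatory cytokines, had the same values of 16.7 and 17.6. Cntf, Csf2 and Ctf1 were among those without a peak.

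Receptors outside the rule were marked at 14 of 26 genes, among them Cntfr, Epor, Flt3, Ifngr2, Ifnlr1, Lepr, Ltbr, Osmr, Tgfbr1, Tgfbr2, Tnfrsf1a and Tnfrsf1b. Crlf2, Crlf3 and Csf1r had no peak. The median CpG ratio was 0.612 in this list and 0.363 in the list of other cytokines, both above the medians of the receptors and ligands in the symbol families.

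Downstream signalling genes were marked at 10 of 25 in the JAK-STAT list and 11 of 27 in the NF-kB and Toll-like receptor list. In the first these included Cish, Jak1, Jak2, Socs1, Socs5, Socs7, Stat5a, Stat5b and Stat6, of which Stat5b, a signal transducer, had 1515 bp and 1293 bp covered. Jak3, Pias2 and Pias3 had no peak. In the second they were Ikbkb, Irak3, Irak4, Nfkb1, Nfkb2, Nfkbie, Rel, Tlr2, Tlr5, Tlr9 and Tnfaip3. Tlr5, the receptor of flagellin, had 1317 bp and 1553 bp. Chuk, Ikbkg and Irak1 had no peak. The median CpG ratio was 0.660 in the JAK-STAT list and 0.636 in the NF-kB and Toll-like receptor list. Both medians fall in the middle CpG class, where 39.3% of all genes were marked, and the part of CpG ratio was not tested.

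The number of marked members depended on the peak list and on how much of the window had to be covered. With 0.5 kb on each side 36 were marked (background 21.4%), with 2.5 kb 44 (30.7%) and with a −log10 q of at least 2, 38 (26.0%). The first run's relaxed lists gave 57, or 42.5% of members (background 33.3%). Its replicated list gave 58, or 43.3% (34.2%), and the second run's replicated list 55, or 41.0% (33.2%). With replicate 1 left out 48 were marked (30.2%) and with replicate 2 left out 39 (27.8%). Any protein-coding transcript start gave 42 (28.5%) and any RefSeq start 27 of 103 (26.2%). With 50% of the window covered in each replicate 25 were marked (14%), and these 25 were also marked under the other 9 alternatives fixed at the start.

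Under each of these rules the share of receptors exceeded that of ligands. The position of the ligands against all genes was not stable. They were below the background at 20.8% in the main count and at 11.1% with 50% of the window covered, but above it at 38.9% with either list of the first run, and at 34.7% with the second run's replicated list. With replicate 1 left out they stood at 30.6%, next to the background of 30.2%.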

How the data were processed

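Peak lists on mm10 were used as deposited. Per the submitters' file records, each replicate has a pseudoreplicated list made from its own alignment, which gave the main calls, and a relaxed list of an earlier run. The replicated list of each run, drawn from both libraries, served as an alternative. A list of another build and 2 further lists of both libraries together were not used. For the aligner, caller, cutoffs and any control reads, nothing is given in the sources used here. The deposited score is a signal value per peak of unstated scaling, used only to describe and rank peaks within a list. The deposited −log10 q of each peak served as a filter in an alternative.

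Genes came from GENCODE mouse release 21. No peak and no gene passed a chromosome end of the GRCm38 sequence. Overlap needed at least 1 bp. CpG ratios came from that sequence and promoters from the RefSeq table for GRCm38.p6. Printed stretches were limited to genes whose RefSeq start lies within 50 bp of the GENCODE end and to at most 30 bases of annotated exon. Nothing was tested, because there is a single condition and genes are not replicates. Members and lists were chosen with earlier results of these data known. All marked members, all with a peak in a single replicate, up to 3 of each family nearest to a common peak and a set of well-known genes are named by rule, and other genes without a peak were named after their values were seen. The groups of interleukins were also drawn up then. Functions were checked on simulated intervals and sequences. Software was pysam 0.24.0, SciPy 1.17.1, pandas 2.3.3, NumPy 2.4.6 and Matplotlib 3.10.9 under Python 3.11.15. A few genes of the families and lists are counted but not reported by name here.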

Additional observations from a re-analysis of the deposited data

How the results depend on the processing

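The count of 38 marked members moved by over 1.5 times under 2 of the 10 alternatives, to 58 with the first run's replicated list and to 25 with 50% of the window covered. The 15 marked ligands became 28 with either list of the first run, 25 with the second run's replicated list and 8 with 50% covered. The 23 marked receptors stayed within 1.5 times. With a replicate left out, members ranged from 39 to 48, ligands from 16 to 22 and receptors from 23 to 26. Without near-identical copies 15 ligands of 67 and 22 receptors of 56 were marked. A RefSeq start, an alternative chosen after seeing the data, gave 27 marked of 103 members, against 26 of the same 103 at the GENCODE end, with 23 marked at both. CpG windows of 250 bp and 1 kb gave medians of 0.235 and 0.203 for ligands and 0.253 and 0.233 for receptors. The cause of the differences between lists was not tested. Depth is unknown, so lists that differ in length cannot be set on a common scale.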

Other observations

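Several members without a marked promoter carried the mark inside the gene. Common peaks covered 31.8% of Il17b, whose promoter had a peak in replicate 2 alone, 27.7% of Il25 and 23.6% of Il17d, and all 3 encode ligands of the Il17 family. Over Ccr6 they covered 11.1% and over Il4i1 10.5%, and both of these genes were marked at another transcript start. The cover of gene bodies over all protein-coding genes is not given here, so these values have no background beside them.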
